A study of Mus musculus with 58 samples.

Results

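Interferon response genes are the genes that cells switch on when interferon reaches its receptor, and 37 of them, chosen by name, are described here in liver tumors and normal livers of mice. Of the 37, 34 were measured by a transcript cluster (the group of array probes read out as one transcript) that carries a single gene symbol. Where a gene had several such clusters, the brightest was used. Gbp2 and Ifi27l2a were found only in clusters that carry several symbols, Ifi44 had no named cluster, and these 3 genes have no value here. The 34 measured genes were tested among 22180 genes.

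The arrays hold 29 liver tumors and 29 normal livers of adult mice of a mixed FVB/NJ, C57BL/6 and 129/Sv background. Adeno-associated virus (AAV), a small virus used to carry genes into cells, had been injected into all of these mice as newborns, normal livers included, and the study asks whether insertion of AAV into the genome contributed to hepatocellular carcinoma. By the gender label 11 tumors were of females, 17 of males and 1 had no label, and 9 normal livers were of females and 20 of males. The titles name 39 animals, of which 18 gave a tumor and a normal liver (a pair) and 1 gave 2 tumors, tumors 22 and 26. The titles of these 2 tumors share the animal number but differ in the code before it, and only tumor 22 bears a mark, so that their origin in 1 animal is a reading of the titles. A -/- mark stands in the titles of 5 tumors and 4 normal livers and a +/- mark in those of 5 tumors and 5 normal livers, and the labels do not name the gene it refers to. The labels give no dose, no exact age, no animals free of AAV and, but for the letters GFP in 1 title of a normal liver, no vector.

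Type I interferons signal through the receptor chains IFNAR1 and IFNAR2 to the kinases JAK1 and TYK2, which activate transcription factors of the STAT family. A complex that holds STAT2 and IRF9 then binds the interferon-stimulated response element (ISRE) in front of its target genes, while interferon gamma acts mainly at the gamma-activated site (GAS). Many of the targets are antiviral proteins, others sense viral nucleic acid or feed back on the pathway, and the chemokines CXCL9, CXCL10 and CXCL11 attract T cells and natural killer cells through the receptor CXCR3. In liver, hepatocytes, Kupffer cells and endothelium can all respond.

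The ISRE core was more frequent in front of the members than in front of all genes. Of the 37 genes, 27 had a promoter window in the RefSeq table of assembly GRCm38.p6, reaching from 250 bases before the gene start to 50 bases after it. The core, searched on both strands as GAAA, any 2 bases and GAAA (TTTC, any 2 bases and TTTC when read from the other strand), was found in 14 of these 27 genes (51.9%), against 3.99% of 27025 genes with a window. The letters TTCNNNGAA of the GAS, which read the same on the other strand, were found in 6 of 27 (22.2%), against 9.55% of all. A match describes the letters and is not a measured binding site, and a window without one says nothing of the factor. Overlapping matches count separately. The 250 bases before the start are printed for 4 genes higher in tumors and for 2 that did not pass the test, with the ISRE core in capitals, because the core stands in front of genes of both kinds.
Isg15 (chr4:156200819-156201068, minus strand): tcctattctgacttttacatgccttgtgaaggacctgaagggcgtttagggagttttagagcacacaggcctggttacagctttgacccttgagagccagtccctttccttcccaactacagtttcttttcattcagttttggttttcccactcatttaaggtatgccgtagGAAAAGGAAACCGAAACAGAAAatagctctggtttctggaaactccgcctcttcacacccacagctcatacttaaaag
Ifit1 (chr19:34640639-34640888, plus strand): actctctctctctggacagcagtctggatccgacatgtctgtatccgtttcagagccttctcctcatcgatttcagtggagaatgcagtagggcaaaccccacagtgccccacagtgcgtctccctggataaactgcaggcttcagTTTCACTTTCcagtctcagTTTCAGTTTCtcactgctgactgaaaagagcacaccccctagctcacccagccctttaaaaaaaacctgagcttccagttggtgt
Rsad2 (chr12:26456453-26456702, minus strand): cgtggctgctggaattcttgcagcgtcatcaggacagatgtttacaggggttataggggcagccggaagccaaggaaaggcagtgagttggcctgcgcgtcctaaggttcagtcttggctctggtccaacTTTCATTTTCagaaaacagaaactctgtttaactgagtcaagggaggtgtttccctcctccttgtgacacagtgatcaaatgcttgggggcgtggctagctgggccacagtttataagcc
Cxcl10 (chr5:92348890-92349139, minus strand): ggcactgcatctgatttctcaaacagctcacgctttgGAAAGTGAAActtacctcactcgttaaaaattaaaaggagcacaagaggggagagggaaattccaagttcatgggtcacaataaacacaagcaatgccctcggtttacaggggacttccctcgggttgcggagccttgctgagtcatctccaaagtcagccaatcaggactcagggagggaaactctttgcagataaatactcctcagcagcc
Ddx60 (chr8:61927837-61928086, plus strand): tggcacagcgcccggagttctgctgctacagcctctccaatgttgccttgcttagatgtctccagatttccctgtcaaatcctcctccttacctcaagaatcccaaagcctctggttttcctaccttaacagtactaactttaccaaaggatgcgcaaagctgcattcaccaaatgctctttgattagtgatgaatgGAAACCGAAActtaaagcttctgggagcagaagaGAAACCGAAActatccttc
Stat2 (chr10:128270248-128270497, plus strand): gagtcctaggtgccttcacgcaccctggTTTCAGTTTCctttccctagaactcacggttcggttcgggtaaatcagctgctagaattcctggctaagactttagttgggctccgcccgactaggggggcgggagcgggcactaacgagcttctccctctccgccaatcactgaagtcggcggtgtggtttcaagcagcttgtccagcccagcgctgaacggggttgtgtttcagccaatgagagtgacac
The Isg15 window holds 3 overlapping matches whose first bases lie 78, 72 and 66 bases before the start. In the Ifit1 window 2 matches begin 104 and 85 bases before the start, and in the Ddx60 window 2 begin at 53 and 19. Rsad2 has 1 at 120, Cxcl10 has 1 at 213 and Stat2 has 1 at 222 bases before the start. By the test of tumors against normal liver given next, the core stood in 5 of 11 genes higher in tumors that had a window and in 8 of 14 that were not called. Cmpk2 and Oasl1, among the largest rises of the list, had no match in their windows.

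Each array gave a log2 value per transcript cluster, from 2.91 to 14.08, with array medians between 6.72 and 7.15, and the number of arrays limits the precision. Values of different genes come from different probes and are not compared. The Xist and Y-linked values of 7 arrays, 4 tumors and 3 normal livers, went against the gender label. Tumor 9 stood apart: its mean of 7 hepatocyte markers was 7.91, against 11.18 to 12.29 in the other tumors and 11.70 to 12.45 in normal livers. Its mean of 8 B and plasma cell markers was 11.78, against 6.78 to 9.48 in the other tumors and 7.12 to 9.11 in normal livers. The other arrays all carried the hepatocyte markers at 11.18 or above. These are bulk samples, so more cells of one type and more RNA per cell cannot be told apart.

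A subset of the interferon response genes was higher in tumors, led by Cxcl10, Rsad2, Oasl1, Cmpk2 and Mx1, while the transcription factors and nucleic acid sensors of the list did not pass the test. With an adjusted p under 0.05 (limma with the animal as a random block, Benjamini-Hochberg over all 22180 genes), 12 of 34 members (35.3%) were higher in tumors, against 17.9% of all genes. Only Cxcl11 was lower, 1 of 34 (2.94%), against 14.3% of all genes. At a log2 change of at least 1, 5 members (14.7%) were higher, against 1.03% of all genes, and 0 were lower, against 0.947%. The median log2 change of the members was 0.26 and 28 of 34 were above 0, beside a median of -0.02 over all genes. At an unadjusted p under 0.05, 18 members were higher and 1 was lower, beside 21.5% and 20.5% of all genes.

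**Figure D1:**
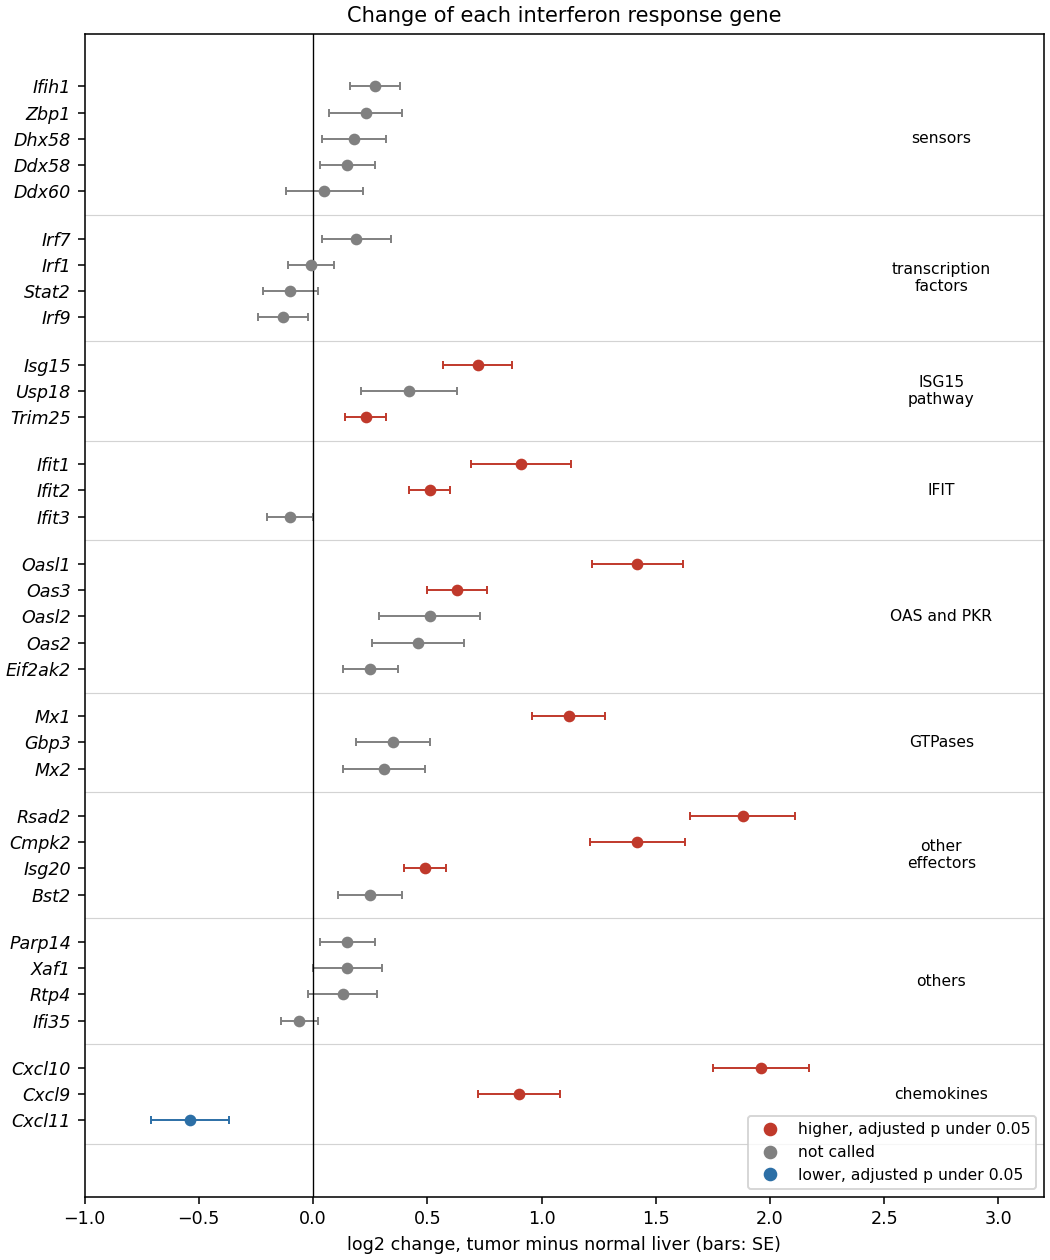
Log2 change (tumor minus normal liver, points, with SE as bars) of the 34 measured genes, grouped by role, from the fit over 29 tumors and 29 normal livers. The 5 changes above 1 belong to Cxcl10, Rsad2, Oasl1, Cmpk2 and Mx1, Cxcl11 is the 1 gene called lower, and all 5 sensors and all 4 transcription factors are grey (not called).

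The chemokine genes moved in opposite directions. Cxcl10 (transcript cluster 17449718) had a log2 value of 6.57 at the lowest, 9.47 at the median and 11.11 at the highest of 29 tumors, against 6.48, 7.33 and 9.21 in 29 normal livers. In 20 of 29 tumors it exceeded the highest normal liver, and the groups overlapped through the other 9 tumors, tumors 1 and 20 lowest among them, and through normal livers 16 and 27. Cxcl10 rose 3.88-fold in tumors (log2 change 1.96, SE 0.21, adjusted p = 5.26e-11). The tumor had more of it in 17 of 18 pairs. Cxcl9, a related gene with 1 coding gene between them on chromosome 5, had a lowest, median and highest value of 9.29, 11.20 and 12.55 in tumors, against 8.60, 10.16 and 11.75 in normal livers. Its rise was 1.87-fold (higher in 15 of 18 paired tumors, log2 change 0.90, SE 0.18, adjusted p = 8.48e-05), and 6 tumors lay above the highest normal liver.

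Cxcl11 (transcript cluster 17449725) had values of 6.21, 7.83 and 9.29 in tumors, against 6.62, 8.46 and 9.51 in normal livers. It fell by 0.54 on the log2 scale in tumors (SE 0.17, adjusted p = 0.0117), and 15 of 18 pairs had less of it in the tumor. The groups overlapped over almost their whole range, and 1 tumor, tumor 9, lay below the lowest normal liver. As background, the Cxcl11 gene of the C57BL/6 strain, one of the strains mixed here, carries a frameshift. Among animals without a pair the change of Cxcl11 was -0.40 and did not pass the test (adjusted p = 0.567).

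Of the 4 other antiviral effectors 3 rose. Rsad2 (transcript cluster 17280327), which encodes viperin, an enzyme that makes a chain-terminating nucleotide, had a lowest, median and highest value of 7.11, 10.92 and 12.04 in tumors, against 7.41, 8.68 and 10.84 in normal livers. Tumors had 3.69 times the level (log2 change 1.88, SE 0.23, adjusted p = 3.26e-09). The tumor was higher in 17 of 18 pairs, and 16 tumors lay above the highest normal liver, normal liver 27. Its neighbour Cmpk2 on chromosome 12, with 0 coding genes between them, encodes a mitochondrial nucleotide kinase that supplies the substrate of viperin. Cmpk2 (transcript cluster 17274620) had 7.40, 10.19 and 11.62 in tumors, against 7.39, 8.66 and 9.95 in normal livers. Its rise was 2.68-fold (log2 change 1.42, SE 0.21, adjusted p = 2.46e-07). Of the tumors, 19 exceeded the highest normal liver. The tumor was higher in 18 of 18 pairs, though by only 0.0049 and 0.0106 on the log2 scale in the pairs of tumors 16 and 20.

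Isg20, an exonuclease that degrades viral RNA, showed a smaller change, with little spread in normal livers (SD 0.21, against 0.45 in tumors). Its values were 7.78, 8.68 and 9.43 in tumors, against 7.68, 8.16 and 8.51 in normal livers, and 18 tumors exceeded the highest normal liver. The log2 change was 0.49 (SE 0.09, adjusted p = 9.69e-06, 15 of 18 pairs). Among animals without a pair its change was 0.40 and missed the threshold (adjusted p = 0.0724). Bst2, which encodes tetherin and holds budding virus at the cell surface, did not pass (change 0.25, SE 0.14, adjusted p = 0.172), although 15 of 18 pairs had the tumor above.

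**Figure D2:**
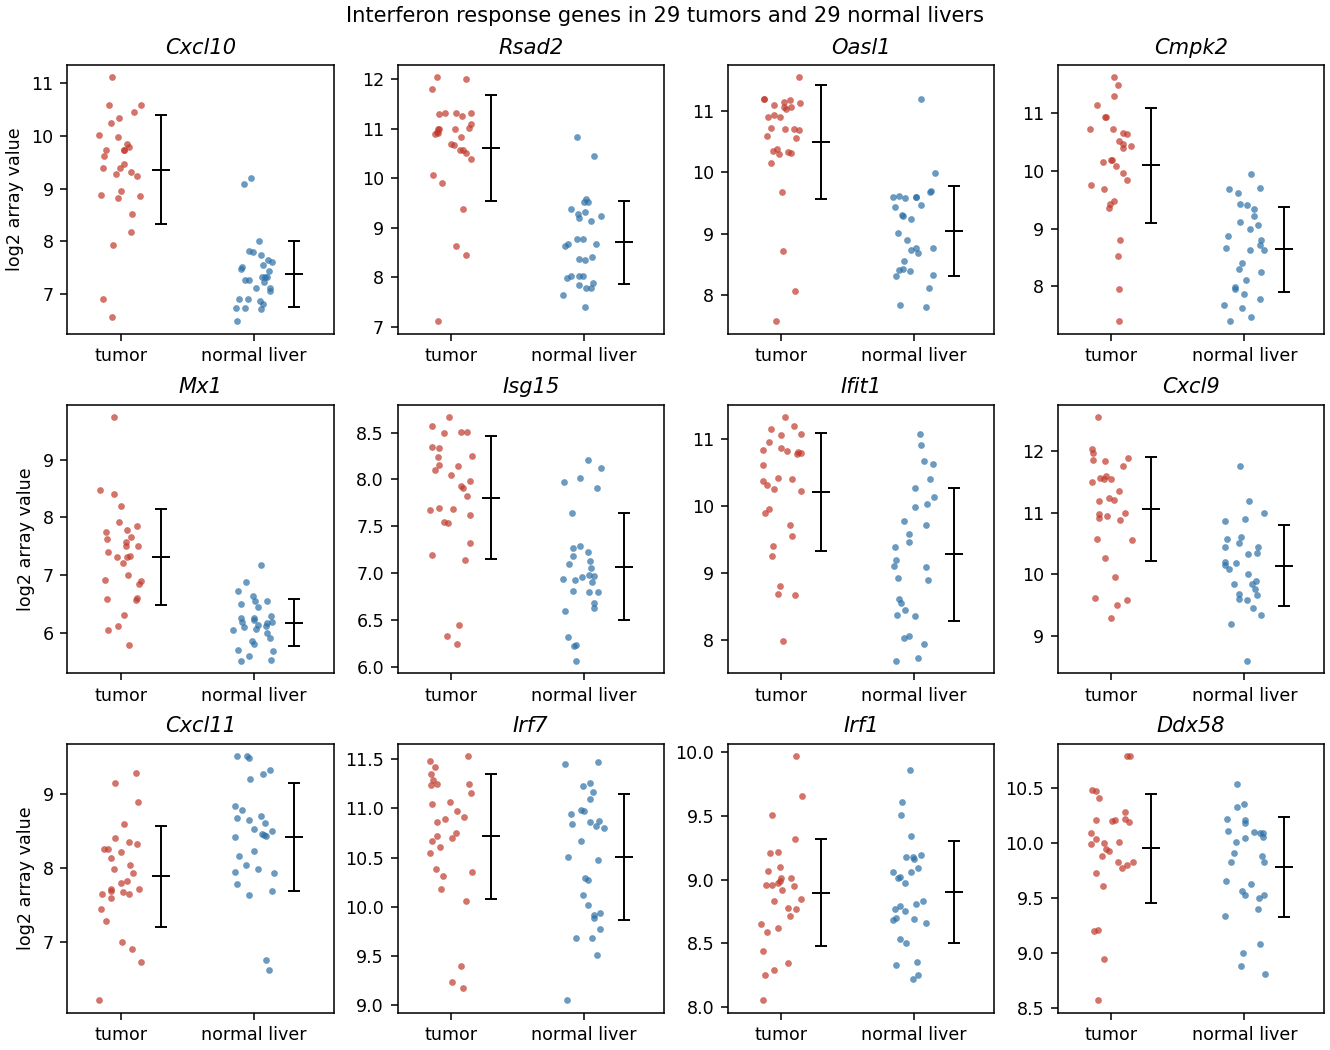
Log2 array values of 12 members in each of 29 tumors (red, left) and 29 normal livers (blue, right), with the mean and SD as a black mark and bar. Cxcl10, Rsad2 and Cmpk2 have most tumors above the highest normal liver, whereas for Irf7, Irf1 and Ddx58 the points of both tissues cover nearly the same range.

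Of the 2'-5' oligoadenylate synthetase genes and the kinase PKR, Oasl1 and Oas3 rose and 3 were not called. Oasl1 (transcript cluster 17441051), a family member without synthetase activity that in mouse restrains translation of Irf7, had values of 7.57, 10.70 and 11.54 in tumors, against 7.80, 9.01 and 11.19 in normal livers. Its rise was also 2.68-fold (higher in 16 of 18 paired tumors, log2 change 1.42, SE 0.20, adjusted p = 9.32e-08). Only 3 tumors lay above the highest normal liver, because normal liver 27 reached 11.19. Oas3, a synthetase that activates RNase L, rose 1.55-fold (higher in 15 of 18 paired tumors, log2 change 0.63, SE 0.13, adjusted p = 0.000167). Changes of their neighbours did not pass the test: Oasl2, next to Oasl1 on chromosome 5, had 0.51 (SE 0.22, adjusted p = 0.0735, 11 of 18 pairs). Oas2, next to Oas3 on the same chromosome, had 0.46 (SE 0.20, adjusted p = 0.0734, 9 of 18 pairs). Eif2ak2, the gene of PKR, which halts translation on binding double-stranded RNA, had 0.25 (SE 0.12, adjusted p = 0.10).

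Among the GTPases of the list Mx1 rose and Mx2 and Gbp3 were not called. Mx1 (transcript cluster 17332531), an antiviral dynamin-like GTPase that is disrupted in many laboratory mouse strains, had values of 5.79, 7.33 and 9.74 in tumors, against 5.52, 6.18 and 7.17 in normal livers. In 18 tumors it lay above the highest normal liver, and tumor 22 was the highest by more than 1 log2 unit, with tumor 27 next at 8.47. The rise was 2.17-fold (higher in 17 of 18 paired tumors, log2 change 1.12, SE 0.16, adjusted p = 8.94e-08). Mx2 had a log2 change of 0.31 (SE 0.18, adjusted p = 0.177). Gbp3, a guanylate-binding protein induced most by interferon gamma, had values of 7.17, 9.02 and 10.47 in tumors, against 7.48, 8.31 and 9.64 in normal livers, a change of 0.35 (SE 0.16, adjusted p = 0.0877, 11 of 18 pairs).

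In the ISG15 pathway, in which a ubiquitin-like protein is joined to other proteins, Isg15 and Trim25 rose and Usp18 was not called. Isg15 had values of 6.24, 7.93 and 8.67 in tumors, against 6.06, 6.97 and 8.21 in normal livers, and 9 tumors lay above the highest normal liver. Its rise was 1.64-fold (higher in 15 of 18 paired tumors, log2 change 0.72, SE 0.15, adjusted p = 0.000105). Trim25, a ubiquitin ligase that acts on RIG-I, changed by 0.23 (SE 0.09, adjusted p = 0.0446). This was the least secure call: it was lost in 32 of 58 fits that each left out 1 array, in the 18 pairs alone (0.13, adjusted p = 0.399) and after quantile normalization (0.13, adjusted p = 0.208). Usp18, the protease that removes ISG15 and damps the receptor, was not called (change 0.42, SE 0.21, adjusted p = 0.111).

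The IFIT genes, whose proteins bind viral RNA, differed among themselves although they lie close together on chromosome 19. Ifit1 had values of 7.98, 10.41 and 11.33 in tumors, against 7.69, 9.20 and 11.08 in normal livers, a 1.87-fold rise (higher in 16 of 18 paired tumors, log2 change 0.91, SE 0.22, adjusted p = 0.00107). Only 3 tumors exceeded the highest normal liver, since normal livers also spread widely. Ifit2 rose 1.42-fold (higher in 16 of 18 paired tumors, log2 change 0.51, SE 0.09, adjusted p = 8.99e-06). Ifit3, next to Ifit2 with 0 coding genes between them, had a mean of 8.25 ± 0.34 in tumors and 8.35 ± 0.48 in normal livers (SD, n = 29 each), a change of -0.10 (SE 0.10, adjusted p = 0.49).

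By limma 0 of 4 transcription factors passed the test, and 0 had an unadjusted p under 0.05, beside 17.9% of all genes called higher and 14.3% called lower. With so few genes, a count of 0 does not set them apart from all genes. Irf7, the factor that amplifies type I interferon production, had values of 9.18, 10.86 and 11.53 in tumors, against 9.05, 10.67 and 11.47 in normal livers. Its change was 0.19 (SE 0.15, adjusted p = 0.354), and 2 SE to either side of it reach from -0.12 to 0.50. Irf1, which responds mostly to interferon gamma, had 8.05, 8.95 and 9.97 in tumors, against 8.22, 8.83 and 9.86 in normal livers, a change of -0.01 (2 SE to either side from -0.21 to 0.19, adjusted p = 0.928). The log2 change was -0.10 for Stat2 (SE 0.12, adjusted p = 0.564) and for Irf9 -0.13 (SE 0.11, adjusted p = 0.357).

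By the same test 0 of 5 sensors passed, with 1 at an unadjusted p under 0.05. The shares of all genes called are again 17.9% higher and 14.3% lower, so this count does not set the sensors apart either. Ifih1, the gene of the double-stranded RNA sensor MDA5, came nearest, with 0.27 (SE 0.11, adjusted p = 0.0651). It passed by limma among animals without a pair (change 0.60, adjusted p = 0.0407). Ddx58, the gene of RIG-I, had 0.15 (adjusted p = 0.319) and Dhx58, a regulator of both, 0.18 (adjusted p = 0.32). Ddx60, a helicase linked to RIG-I, had 0.05 (adjusted p = 0.854). Zbp1, a sensor of Z-form nucleic acid that can start cell death, had values of 7.98, 9.44 and 10.69 in tumors, against 7.81, 8.95 and 10.37 in normal livers, a change of 0.23 (SE 0.16, adjusted p = 0.265). The remaining members, Parp14, Xaf1, Rtp4 and Ifi35, had log2 changes of 0.15, 0.15, 0.13 and -0.06 and were not called, with 0 of the 4 at an unadjusted p under 0.05.

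The count of members called moved most with tumor 20. Without it 18 members were higher, beside 20.1% of all genes, the 6 added being Ifih1 (0.33, adjusted p = 0.00957), Oas2 (0.50, 0.0414), Oasl2 (0.60, 0.0188), Usp18 (0.53, 0.0205), Eif2ak2 (0.31, 0.0202) and Bst2 (0.33, 0.0282). Of these 6, Usp18 gained its call only without tumor 20, whereas Ifih1, Oas2 and Oasl2 gained theirs in 6, 7 and 5 of the 58 fits and Eif2ak2 and Bst2 in 2 each. Without any other single array the count lay between 11 and 16. With arrays weighted by their estimated quality 19 members were higher, beside 24.1% of all genes. Cxcl11 stayed the 1 gene called lower in all 58 of these fits.

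The median change was smaller within pairs than between animals that gave 1 tissue. In a fit of only the 18 pairs, which blocks on the animal, 11 members were higher and 1 lower, beside 12.6% and 8.13% of all genes in that fit. By at least 1, 5 members were higher, beside 1.2% of all genes, and the median member change was 0.11. Among the 11 tumors and 11 normal livers without the other tissue, 12 were higher and 0 lower by limma, beside 5.93% and 2.96% of all genes. By at least 1, 8 were higher, beside 0.87% of all genes, and the median was 0.59. The difference between these medians was not tested. In the normal livers, the median over arrays of the mean deviation was -0.28 for those without a tumor array of the same animal and 0.18 for those with one. In the tumors it was 0.61 for those without a normal liver array of the same animal and 0.52 for those with one.

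At least 15 of 18 tumors were higher than their own normal liver for 12 of 34 members (35.3%), against 10.2% of all genes, and at least 15 were lower for 1 (2.94%), against 7.28% of all genes. The pairs differed from one another. In tumor 2 and normal liver 2, 33 of 34 members were higher in the tumor and the mean difference was 1.18 on the log2 scale. In tumor 1 and normal liver 1, 32 were higher, with a smaller mean difference of 0.41 and 0 members higher by at least 1. In tumor 4 and normal liver 4, 29 were higher, with a mean difference of 0.65. At the other end, tumor 20 had 11 members higher and a mean difference of -0.33 from normal liver 19, and tumor 12 had 11 higher and a mean difference of -0.03 from normal liver 12. In 5 pairs (tumors 7, 9, 10, 15 and 16) the mean difference lay between 0.12 and 0.16.

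**Figure D3:**
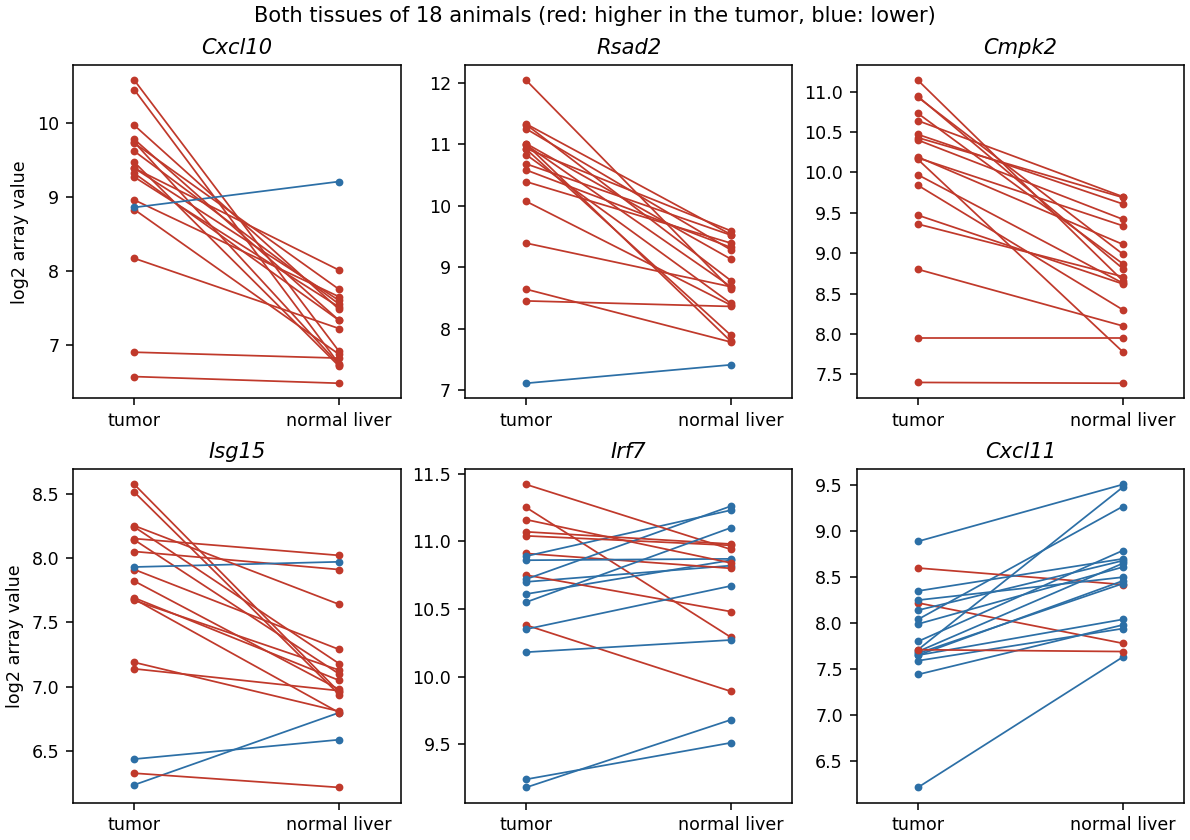
Log2 array values of 6 members in the tumor (left) and the normal liver (right) of 18 animals, with a line for each animal, red where the tumor is higher and blue where it is lower. Cxcl10 and Rsad2 are higher in 17 tumors and Cmpk2 in 18, Isg15 in 15, Irf7 in 8 and Cxcl11 in 3.

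A joint response was described array by array, as the number of members at least 1 log2 unit above the median of the 29 normal livers, with no test. Tumors had a median of 7 raised members (range 0 to 21), and normal livers a median of 1 (range 0 to 11). The share of all genes raised or lowered in each array is not given here. Deviations are taken from the normal liver median, so those of normal livers are centred by definition. The SD was larger in tumors for 67.4% of all genes and for 67.6% of the members. A wider spread of tumors is thus not particular to these genes. At least 10 members were raised in 8 tumors and in 1 normal liver, and at least 5 in 22 tumors and 4 normal livers. None was raised in 2 tumors and in 14 normal livers. The same genes made up most tumors' counts: Cxcl10, Rsad2 and Oasl1 were each raised in 25 of 29 tumors, against 2, 2 and 1 normal livers. Cmpk2 was raised in 22 tumors and 3 normal livers, Ifit1 in 19 and 6, Mx1 in 18 and 0, Cxcl9 in 16 and 2, and Isg15 in 14 and 4. Irf7 was raised in 0 tumors and 0 normal livers.

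The broadest response was that of tumor 22, with 21 members raised and a mean deviation of 1.40 over the 34. Tumor 27 followed with 18 raised (mean deviation 1.21), then tumor 17 with 16 (1.18), tumor 18 with 14 (0.94) and tumor 21 with 13 (0.88). All 5 belong to animals without a normal liver array. Tumor 26, whose title has the same animal number as that of tumor 22, had 8 members raised and a mean deviation of 0.48. The same 3 tumors, 22, 17 and 27, led in targets of type I interferon outside the 37 genes, while tumors 18 and 21 did not stand out. The mean level of 31 such genes was 9.40 in tumor 22, 9.31 in tumor 17 and 9.26 in tumor 27, against 7.85 to 9.03 in the other tumors and at most 9.19 in normal livers. Targets of interferon gamma, 24 genes outside the member list, also lay above the tumor median of 9.05 in all 5 tumors. Their mean was 10.03 in tumor 27, the highest of all tumors, and 9.46 in tumor 17. It was 9.32 in tumors 18 and 21 and 9.29 in tumor 22, and normal livers reached 9.54.

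Markers of immune cells were not uniform among these tumors. The mean of 15 T and natural killer cell markers was 6.72 in tumor 22 (the twenty-sixth of 29 tumors), 7.52 in tumor 27 (the second) and 6.92 in tumor 17 (the fifteenth). In tumor 18 it was 7.51 (rank 3) and in tumor 21 it was 6.96 (rank 13). The mean of 10 Kupffer cell and macrophage markers was 7.84 in tumor 22, the lowest of all 29 tumors. It was 9.74 in tumor 27, 8.45 in tumor 17, 8.41 in tumor 18 and 8.88 in tumor 21. Tumor 9, with by far the highest T cell and B cell markers, had 2 raised members and a mean deviation of -0.06. Its mean of 24 interferon gamma targets outside the member list was 9.64, with a median of 9.05 over the 29 tumors. Its mean of 31 other type I targets was 8.96, with a median of 8.68. Its hepatocyte marker mean was 7.91, against 11.18 to 12.29 in the other tumors. The part of these low hepatocyte markers in its mean deviation was not tested. Tumor 1 had 0 raised members and, like tumor 9, a mean deviation of -0.06. Its own normal liver 1 was lower, with a mean deviation of -0.47, and 32 of 34 members were higher in tumor 1 than there.

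Tumor 20 lay at the low end, with 0 members raised, 19 lowered by at least 1 and a mean deviation of -1.11. Normal liver 19, of the same animal, had the second lowest mean deviation of the normal livers, -0.79, with 10 members lowered. Both had the highest neutrophil markers of their tissue, a mean of 10.33 for 9 genes in tumor 20, with 5.94 to 7.87 in the other tumors, and 10.42 in normal liver 19, with 5.99 to 8.91 in the other normal livers. Their part in the low interferon genes was not tested. Normal liver 18 was the lowest of all normal livers, with a mean deviation of -0.80 and a neutrophil mean of 6.20.

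Among normal livers the broadest response was that of normal liver 21, with 11 members raised and a mean deviation of 0.85, followed by normal liver 22 with 7 raised and 0.64. These livers also had the highest mean of the 31 other type I targets, 9.19 and 8.99, in their tissue. Among the 11 members raised in normal liver 21 were Ifit1 (1.88 above the median), Rsad2 (1.78), Cmpk2 (1.29) and Isg15 (1.24), and also Mx2 (1.46), Ddx60 (1.44) and Xaf1 (1.37).

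**Figure D4:**
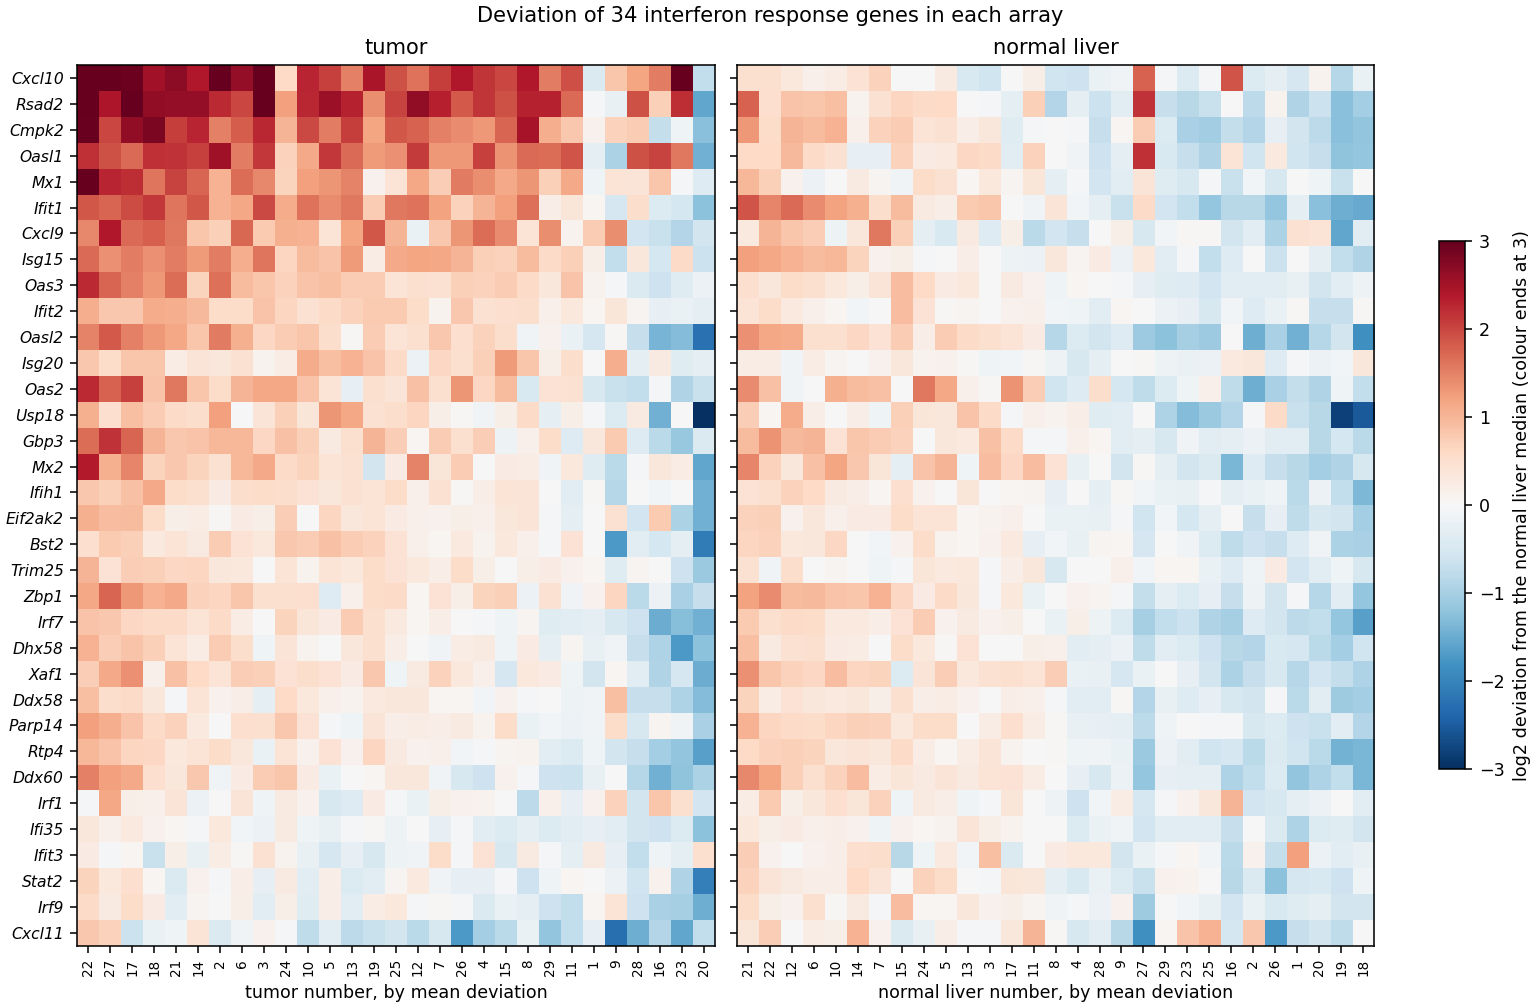
Log2 deviation from the normal liver median for 34 members (rows, ordered by the change between tissues) in 29 tumors (left) and 29 normal livers (right), each ordered by its mean deviation. The upper rows are red in most tumors, the lower rows only in a few at the left such as tumors 22, 27 and 17, and tumor 20 is blue almost throughout.

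In some arrays the mean of the 5 genes with a change above 1 was high while the mean of the 21 genes not called was low. These sets were formed from the tissue comparison, so their values are a description. In tumor 23 the mean deviation of the 5 genes was 1.48 and that of the 21 was -0.69. The same means were 1.23 and -0.51 in tumor 28 and 0.88 and -0.50 in tumor 16. Within the 5, Cxcl10 and Oasl1 were raised by at least 1 in these 3 tumors, whereas Cmpk2 was at -0.13 in tumor 23 and -0.71 in tumor 16, and Mx1 at -0.06 in tumor 23. Normal liver 27 had means of 1.45 and -0.62: its Rsad2 (10.84) and Oasl1 (11.19) were the highest of all normal livers, and its Cxcl10 (9.09) was second only to that of normal liver 16 (9.21). In tumor 22 both means were high, at 3.06 and 1.02, and in tumor 20 both were low, at -1.08 and -1.31.

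**Figure D5:**
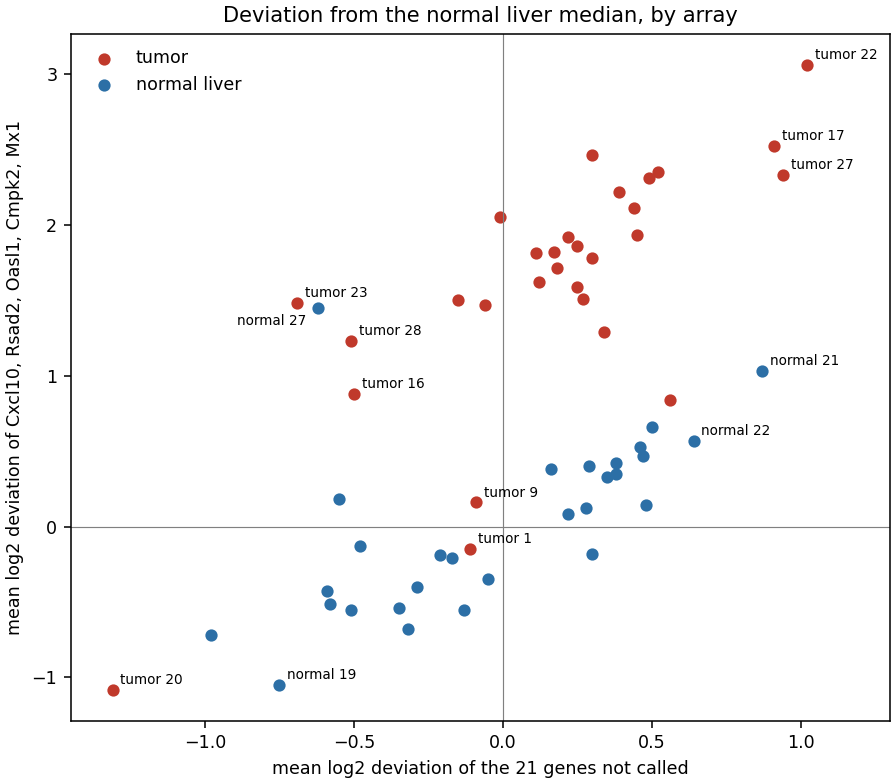
Each point is an array (29 tumors in red, 29 normal livers in blue), placed by the mean log2 deviation of the 21 members not called (horizontal) and of Cxcl10, Rsad2, Oasl1, Cmpk2 and Mx1 (vertical) from the normal liver median. Tumors 22, 17 and 27 lie at the upper right, tumors 23, 28 and 16 and normal liver 27 at the upper left, and tumor 20 and normal liver 19 at the lower left.

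Several members of different roles varied together across animals. Isg15 was set against 5 index genes in each tissue, and each of the 6 genes was set between both tissues of an animal, 16 relations in all, with 2-sided permutation p-values adjusted over the 16. Across 28 tumor animals Isg15 and Irf7 had r = 0.765 (permutation p = 4e-05, adjusted 0.00016) and rho = 0.702 (p = 6e-05, adjusted 0.00024), and r was 0.725 without the 2 animals farthest from the median. Across 29 normal livers they had r = 0.753 (p = 2e-05, adjusted 0.00011) and rho = 0.735 (p = 3e-05, adjusted 0.00016), with r = 0.714 without the 2 farthest. Isg15 and Irf7 thus varied together in both tissues, although only Isg15 differed in level between them.

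For Cxcl10 the relation passed in tumors only. Isg15 and Cxcl10 had r = 0.680 (permutation p = 8e-05, adjusted 0.00026) and rho = 0.681 (p = 0.0001, adjusted 0.00032) across tumors, with r = 0.539 without the 2 farthest. Across normal livers they had r = 0.258 (p = 0.18, adjusted 0.20) and rho = 0.354 (p = 0.061, adjusted 0.088), with r = 0.190 without the 2 farthest. The difference between both tissues was not tested. For Irf1 no relation passed: r was -0.096 (p = 0.63, adjusted 0.63) and rho -0.065 (p = 0.74, adjusted 0.79) across tumors, with r = -0.138 without the 2 farthest. Across normal livers r was 0.306 (p = 0.11, adjusted 0.13) and rho 0.195 (p = 0.31, adjusted 0.36), with r = 0.189 without the 2 farthest.

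Gbp3 and Zbp1 followed Isg15 in both tissues. Isg15 and Gbp3 had r = 0.533 (permutation p = 0.0034, adjusted 0.0077) and rho = 0.562 (p = 0.0023, adjusted 0.0052) across tumors, and r = 0.616 without the 2 farthest. Across normal livers the values were r = 0.796 (p = 1e-05, the smallest these permutations can give, adjusted 8e-05) and rho = 0.797 (p = 1e-05, adjusted 0.00016), with r = 0.739 without the 2 farthest. Isg15 and Zbp1 had r = 0.509 (p = 0.0061, adjusted 0.012) and rho = 0.564 (p = 0.0022, adjusted 0.0052) across tumors, and r = 0.558 without the 2 farthest. In normal livers r was 0.821 (p = 1e-05, adjusted 8e-05) and rho 0.794 (p = 2e-05, adjusted 0.00016), with r = 0.759 without the 2 farthest.

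Between the tumor and the normal liver of the same animal, Isg15 was related across 18 pairs, with r = 0.604 (permutation p = 0.0079, adjusted 0.014) and rho = 0.581 (p = 0.012, adjusted 0.025), and r = 0.643 without the 2 pairs farthest from the median. Irf7 had r = 0.748 (p = 0.00086, adjusted 0.0023), but rho = 0.498 (p = 0.037, adjusted 0.067) and r = 0.345 without the 2 farthest pairs, so that its relation rests on those. Cxcl10 had r = 0.157 (p = 0.51, adjusted 0.55) and rho = 0.030 (p = 0.91, adjusted 0.91), with r = 0.065 without the 2 farthest. Gbp3, Irf1 and Zbp1 had r = 0.416, 0.451 and 0.431 with permutation p = 0.086, 0.060 and 0.076 (adjusted 0.12, 0.096 and 0.11). Their rho were 0.331, 0.453 and 0.416 with p = 0.18, 0.060 and 0.088 (adjusted 0.22, 0.088 and 0.12), and r without the 2 farthest was 0.235, 0.330 and 0.362.

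No member passed the test for labelled sex or for the marks, which does not show that the groups were alike. By limma, 0 of 34 members differed between 9 female and 20 male normal livers, with 0 at an unadjusted p under 0.05, beside 0.0135% of all genes called higher and 0.0361% called lower in females. The member of smallest p was Irf1, with medians of 9.01 in females and 8.77 in males (difference 0.23, SE 0.16, adjusted p = 1). Between 11 female and 17 male tumors 0 passed, beside 0.00451% of all genes called higher and 0.018% lower, and 7 of 34 members were lower in females at an unadjusted p under 0.05, beside 6.06% of all genes. Isg20 had the smallest p there, with medians of 8.38 in female and 8.87 in male tumors (difference -0.43, SE 0.12, adjusted p = 0.376). The difference between the sex contrasts of tumors and of normal livers passed for 0 members, as for 0 of all genes, with 1 member lower at an unadjusted p under 0.05, beside 2.29% of all genes (Isg20, -0.42, adjusted p = 0.949). For 33 of 34 members the value in female tumors was the lower, with a median difference of -0.32, beside 0.01 over all genes. Tumor 20, the tumor of lowest mean deviation (-1.11), is among the 11 female tumors, and the sex contrast was not run without it. The members also vary together, so that 33 of 34 are not independent results. The 7 arrays that go against their gender label are part of these contrasts, and 0 members passed without them as well.

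Of the 9 normal livers labelled male that bear a mark, 4 of -/- and 5 of +/-, 0 members differed, as did 0 of all genes, with 1 member lower in -/- livers at an unadjusted p under 0.05, beside 2.66% of all genes. Among these livers +/- normal liver 15 went against its male label (Xist 11.69, mean of Y-linked genes 5.27). Without it 0 members passed as well. In the comparison of all 9 livers 1 member had an unadjusted p under 0.05. That was Usp18, at 10.27, 9.48, 10.36 and 10.29 in the -/- livers, against 10.51, 10.17, 11.18, 11.02 and 10.88 in the +/- livers (difference -0.65, adjusted p = 0.714). The groups overlapped through +/- normal liver 7. Among marked tumors, which were not tested, the -/- tumors had 21, 18, 5, 3 and 3 members raised and the +/- tumors 10, 8, 7, 6 and 5.

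Upstream of the members, none of the genes for interferons themselves was called higher. Some of these are dim and may lie near background, such as Ifna11 (mean 3.55 in tumors) and Ifnb1 (4.68). The counts of this paragraph stand beside 17.9% of all genes called higher and 14.3% called lower. The lists were not tested as sets, and the count of ligands called lower is near the share of all genes. Of 16 measured interferon ligand genes 0 rose and 2 fell in tumors, Ifna14 (-0.31, SE 0.12, adjusted p = 0.0333) and Ifna4 (-0.23, SE 0.09, adjusted p = 0.0452), with a median of -0.06. Both calls were lost in the fit of pairs (adjusted p = 0.0599 and 0.211) and among animals without a pair (0.305 and 0.247). Of 11 measured receptor and JAK-STAT genes 4 rose and 0 fell. Ifnar1, a chain of the type I receptor, rose by 0.40 (adjusted p = 5.53e-05) and Ifngr2, a chain of the interferon gamma receptor, by 0.38 (adjusted p = 0.00155). Il10rb, shared by the receptors for interferon lambda and interleukin 10, rose by 0.45 (adjusted p = 0.000797). Of 14 further nucleic acid sensing genes 4 rose and 0 fell, led by Tlr3, a sensor of double-stranded RNA (0.72, adjusted p = 1.41e-06), with Cgas, the cytosolic DNA sensor (0.17, adjusted p = 0.000619), and Tlr9, which binds unmethylated DNA (0.30, adjusted p = 0.0153, lost in the fit of pairs with 0.125).

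For targets outside the 37 genes the counts stand beside 17.9% of all genes higher and 14.3% lower. Of 31 measured other type I targets 8 rose and 3 fell, with a median change of 0.11. Phf11d rose by 1.05 (SE 0.17, adjusted p = 2.86e-06), Ifit1bl1 by 0.71 (adjusted p = 3.92e-06) and Phf11b by 0.46 (adjusted p = 9.69e-05). Of 24 measured interferon gamma targets 6 rose and 2 fell, with a median of 0.18. Gbp9, a guanylate-binding protein, rose by 0.60 (adjusted p = 0.00166) and Psmb8, a subunit of the immunoproteasome, by 0.33 (adjusted p = 0.00391), a call lost in the fit of pairs (adjusted p = 0.123). Iigp1, an immunity-related GTPase, fell by 0.54 (SE 0.13, adjusted p = 0.000575) and was higher in the tumor of 1 of 18 pairs, but among animals without a pair its change was -0.19 (adjusted p = 0.753).

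Markers of other cell types differed between tissues as well, and their part in the interferon genes was not tested. The counts of this paragraph and the next stand beside 17.9% of all genes called higher and 14.3% called lower. Of 10 Kupffer cell and macrophage markers 2 rose and 5 fell, among them Clec4f (-2.06, adjusted p = 2.39e-10), Vsig4 (-2.37, adjusted p = 3.31e-07) and Timd4 (-1.20, adjusted p = 5.56e-07), and the mean level of the list ran from 7.84 to 10.34 in tumors and from 8.34 to 11.10 in normal livers. Of 15 T and natural killer cell markers 2 rose, Cd4 (0.48, adjusted p = 0.00202) and Ccl5 (0.50, adjusted p = 0.0332), and Prf1 fell (-0.22, adjusted p = 0.0148). Ccl5 lost its call in the fit of pairs (adjusted p = 0.235) and without tumor 9 (0.38, adjusted p = 0.0556), and Cd4 (0.31, 0.238) and Prf1 (-0.08, 0.72) lost theirs among animals without a pair. The list had levels of 6.51 to 7.52 in tumors other than tumor 9, 9.22 in tumor 9 and 6.66 to 7.72 in normal livers. Of 6 plasmacytoid dendritic cell markers, a cell type known as a strong source of type I interferon, 3 rose, Ly6d (1.44, adjusted p = 1.97e-06), Tcf4 (0.34, adjusted p = 0.000757) and Klk1 (0.39, adjusted p = 0.00839, lost in the fit of pairs with 0.138). The other markers of this list, Siglech, Ccr9 and Spib, were not called. Its levels were 7.08 to 8.10 in tumors other than tumor 9, 9.04 in tumor 9 and 6.71 to 7.69 in normal livers.

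Of 6 dendritic cell markers Itgax rose (0.97, adjusted p = 5.68e-06) while Cd209a (-0.33, adjusted p = 0.00168) and Zbtb46 (-0.14, adjusted p = 0.008) fell, with levels of 7.38 to 8.67 in tumors and 7.31 to 8.08 in normal livers. Of 6 markers of recruited monocytes and lipid-laden macrophages 2 rose, Gpnmb (1.76, adjusted p = 5.95e-06) and Trem2 (0.30, adjusted p = 0.0352, lost in the fit of pairs with 0.107), with levels of 7.15 to 9.13 in tumors and 6.89 to 9.58 in normal livers. Of 9 endothelial markers 4 rose and 2 fell, with Esm1 at 1.86 (adjusted p = 1.89e-10), Flt4 at 1.00 (adjusted p = 3.34e-09) and Clec4g, a marker of liver sinusoids, at -2.03 (adjusted p = 4.34e-08), and levels of 8.42 to 10.41 in tumors and 8.74 to 10.10 in normal livers. By limma 0 of 8 B and plasma cell markers passed (1 lower at an unadjusted p under 0.05; Ighm, -0.47, adjusted p = 0.109, and without tumor 9 -0.60, adjusted p = 0.0132). Of 9 neutrophil markers 0 passed, with 0 at an unadjusted p under 0.05 (Retnlg, -0.36, adjusted p = 0.423, and in the fit of pairs -0.55, adjusted p = 0.0195). Of 7 hepatocyte markers 0 rose and 4 fell, among them Apoa1 (-0.74, adjusted p = 0.000103), Serpina1a (-0.94, adjusted p = 0.000111) and Fga (-0.63, adjusted p = 0.0102, and among animals without a pair -0.20, 0.505). Without tumor 9, the array richest in lymphocyte markers, 15 of the 34 interferon response genes were higher and 1 lower. The share of all genes called in that fit is not given here, so these counts are not read as a change in the members.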

How the data were processed

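RNA of 29 liver tumors and 29 normal livers was measured on Affymetrix arrays. The miRNeasy kit served for extraction, and the RNA was amplified and biotin-labelled, per the labels' protocols. The deposited values are log2 expression per transcript cluster, made by the authors. The submitters' processing notes name Affymetrix Expression Console for this. Version, algorithm and genome build: not given in the sources used here. As scanner files were not analysed, background and scan batches could not be examined.

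Of 41345 clusters 23521 had 1 gene symbol in the platform table, 1814 several and 16010 none. Genes were named from single-symbol clusters only, the brightest per gene. Groups came from the tissue label, sex from the gender label and animals from the titles, so tissues with the same animal number in the title were taken as pairs. Tumor 19 and normal liver 17 were taken as a pair in this way, although only the normal liver bears a mark (-/-). Normal livers 26 and 27 share a title but bear opposite marks and were kept apart as animals. Where titles do not say more, p-values measure the spread between these samples.

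All gene tests used R 4.3.3 (limma 3.58.1, statmod 1.5.0), with animals entered into lmFit as random blocks (correlation 0.145), a trended eBayes step, and p-values adjusted by Benjamini-Hochberg across 22180 genes. Sex contrasts came from 1 fit of 57 arrays (correlation 0.148), and the marks from 9 livers without a block. The fits were tested on simulated data with known changes. Permutation tests of correlations used 100000 resamples in Python 3.11.15 with scipy 1.17.1.

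The members and lists were chosen with earlier results of these data known. All measured members are named. Of each other list up to 3 genes of smallest adjusted p and the gene of largest change are named, and for sex and marks the member of smallest p. The lowest, median and highest values are given for members with a called change of at least 1, for those opposite in direction and for the index genes; those of Cxcl9, Isg20 and Ifit1, and arrays singled out in the joint response, were added after their values were seen. Gbp2, planned as an index gene, has no single-symbol cluster, and Gbp3 took its place, by the name table and not by values. Alternatives changed the block, pairing, scaling, weights, filter, trend, clusters and arrays. Leaving out each of the 58 arrays was added after the data were seen. Promoter sequences are from RefSeq, GRCm38.p6.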

Additional observations from a re-analysis of the deposited data

Results flagged for a closer look

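One value stood far from the others of a group of 4. Usp18, the protease that removes ISG15, had a log2 value of 9.48 in normal liver 20, against 10.27 to 10.36 in the other 3 normal livers marked -/-. The gap to the nearest of them was 0.898 of the range of the group, above the 95% critical value of 0.829 for 4 samples. Over all 29 normal livers the value was not extreme, since 6 had less Usp18, normal livers 19 and 18 the least. Chance marks about 1 in 20 groups in this way when the gene is fixed beforehand. Usp18 was checked because it had the smallest p between the marks, from these same values, so that rate does not hold here. The same liver had 0 members raised and a mean deviation of -0.53 over the 34 interferon response genes.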

How the results depend on the processing

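The 5 genes with a change above 1, and Ifit1, Cxcl9, Isg15, Oas3 and Ifit2, kept their rise and their call under every alternative of the tissue comparison that tested them; the filter on brighter genes left out Mx1 and Ifit2. The count of 12 members higher lay between 11 and 16 under the others, without a replicate block included, and was 19 with array weights. The share of all genes called higher moved too, being 17.9% in the main fit, 12.6% in the 18 pairs and 24.1% with array weights. With a replicate block for the animal, in the 18 pairs, the count of members higher was 11, Trim25 lost its call, and Irf7 (-0.01), Ddx60 (-0.16), Rtp4 (-0.05), Parp14 (-0.05) and Zbp1 (-0.0042) turned below 0. Among animals without a pair, which used the block correlation of all arrays, 8 members were higher by at least 1 and 0 were lower, and Ifi35 (0.20), Stat2 (0.02), Irf1 (0.19), Irf9 (0.13) and Retnlg (0.0069) turned above 0. Without the 7 arrays against the gender label Ifi35 was at 0.0013 and Irf1 at 0.03, and after quantile normalization Ddx60 was at -0.03. None of these reversed genes was called. Of the genes named from other lists, 21 lost a call under at least 1 alternative, most of them in the smaller set of animals without a pair. Leaving out each array gave 11 to 18 members higher and 1 to 1 lower, the 18 without tumor 20. For sex and marks every count stayed at 0, from 0 to 0 when each marked liver was left out. At a limit of 0.5 the median number of raised members was 14 in tumors and 4 in normal livers, and at 2 it was 2 and 0. Without tumor 9 the correlation of Isg15 with Irf1 in tumors was 0.041. Without scanner files no detection limit is known, so dim genes may lie near background. Some interferon ligands are among these, such as Ifna11 (mean 3.55 in tumors) and Ifnb1 (4.68).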
